A study of Mus musculus with 2 samples.

Results

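The results below follow 10 genes that mark regulatory T cells, Foxp3, Ikzf2, Ikzf4, Il2ra, Ctla4, Tnfrsf4, Tnfrsf18, Tnfrsf9, Izumo1r and Ccr8, of 22836 genes in a single-cell count table of mouse tumour leukocytes. They were chosen by name, as genes known for regulatory T cells, and all 10 had a row in the table. These genes and the gene lists used below were chosen with earlier results of these data known. The cells were CD45+ cells of subcutaneous Colon26 tumours, a mouse colon carcinoma line, grown in wild-type BALB/c mice. In 4 mice the peptide minP1, an immunostimulatory peptide of HMGN1, was given once into the peritoneum at 0.08 µg on day 9. In 3 mice the anti-PD-L1 antibody 10F.9G2, which blocks a checkpoint ligand, was given at 200 µg per injection on days 4 and 8 (the group PDL1). In 4 mice both were given (minP1_PDL1), and 3 mice were Control mice, for which the labels name no injection. Every tumour was taken on day 10.

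Regulatory T cells are CD4 T cells that restrain other immune cells, and in many tumours they gather among the infiltrating lymphocytes. Foxp3 is the transcription factor that defines them. Ikzf2 (Helios) and Ikzf4 (Eos) are zinc-finger factors of the Ikaros family that act beside it. The cells carry the high-affinity subunit of the interleukin-2 receptor (Il2ra, CD25) and CTLA-4, which takes CD80 and CD86 away from antigen-presenting cells. They also carry 3 costimulatory receptors of the TNF receptor family, OX40 (Tnfrsf4), GITR (Tnfrsf18) and 4-1BB (Tnfrsf9), which activated effector T cells and NK cells can carry too. Izumo1r encodes folate receptor 4, and Ccr8 a chemokine receptor of tumour regulatory T cells whose mouse ligands include CCL1 and CCL8.

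Each of the 14 mice had its own hashtag antibody, and 466 to 724 cells per mouse were kept, 7732 in all, with 26007834 to 51230461 reads per mouse. The labels call the cells intestinal although the tumours were subcutaneous, and they speak of separate experimental runs without giving a run for any mouse. The barcodes of all 14 mice carried 1 run name and belonged to the same cDNA library. Whether earlier steps were run separately is not stated, so any such runs and the groups cannot be told apart. The mice are described as separate animals. No cell number was shared between mice. Among the kept cells, 26.6% had a doublet score above the limit of 0.5, against 73.6% of simulated doublets. Reads were not collapsed by molecule. The exact binomial intervals below pool cells over mice and leave out the spread between mice. The SEs come from fits on sums per mouse and include that spread.

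The cells were clustered with the 10 genes left out, and clusters were named from other markers. T cells numbered 1742 in 4 clusters. A regulatory T-like cluster (498 cells) was named from genes such as Itgae, Klrg1 and Icos. Its top genes held 6 regulatory T cell markers, 3 CD8 T cell markers and 1 conventional CD4 T cell marker. The other 3 clusters were a CD8 T-like cluster (316 cells), a gamma delta T-like cluster (147 cells) and a T cell cluster that stayed without a subset name (781 cells). T cell receptor genes marked these cells, with a Trac read in 87.1% and a Cd3e read in 64.1% of them, against 48.8% and 32.8% of all cells. A Cd4 read was found in 26.1% of T cells and in 39.7% of those with a Foxp3 read. For Cd8a these shares were 26.6% and 8.39%. The clusters were made from the same cells, so the levels below are descriptions without a test. They are given in CPM, the reads of a gene over all reads of the cells of 1 cluster in 1 mouse, scaled to a common total of 1000000 reads.

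The bases before the gene start are shown for 3 of the genes, Ctla4, Tnfrsf9 and Foxp3, in which the letters of an NFAT motif lie upstream. NFAT is a calcium-dependent factor that works with Foxp3 at some T cell genes. The RefSeq promoter table for GRCm38.p6 held 10 windows for 8 of the genes, each from 250 bases before to 50 bases after an annotated start. Ikzf2 and Ikzf4 had no window and are named only. The motif letters searched on both strands were TGGAAA for NFAT, GTAAACA for forkhead factors, TGTGGT for Runx factors and TGANTCA for AP-1. The 250 bases before the start are printed 5′ to 3′ along the gene with the NFAT letters in capitals, where TTTCCA is TGGAAA read from the other strand, and the Foxp3 stretch precedes the second of its 2 annotated starts, inside the gene.
Ctla4, chr1:60908775-60909024, plus strand: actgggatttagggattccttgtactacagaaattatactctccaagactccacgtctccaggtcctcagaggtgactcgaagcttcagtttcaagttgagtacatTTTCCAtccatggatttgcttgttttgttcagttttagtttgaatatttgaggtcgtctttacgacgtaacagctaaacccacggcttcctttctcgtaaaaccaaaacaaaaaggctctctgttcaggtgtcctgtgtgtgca
Tnfrsf9, chr4:150919905-150920154, plus strand: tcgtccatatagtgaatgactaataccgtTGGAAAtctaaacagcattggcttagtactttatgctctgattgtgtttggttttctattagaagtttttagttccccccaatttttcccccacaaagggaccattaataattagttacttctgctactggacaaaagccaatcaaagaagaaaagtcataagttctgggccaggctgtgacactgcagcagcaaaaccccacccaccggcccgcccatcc
Foxp3, chrX:7580233-7580482, plus strand: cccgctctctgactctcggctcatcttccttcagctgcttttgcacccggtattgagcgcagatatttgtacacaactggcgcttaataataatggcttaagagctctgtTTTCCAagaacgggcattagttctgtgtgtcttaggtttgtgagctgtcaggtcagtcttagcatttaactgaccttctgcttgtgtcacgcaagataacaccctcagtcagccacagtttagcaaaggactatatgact

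The NFAT letters stood in 5 of the 10 windows, those of Ctla4, Izumo1r, Tnfrsf4, Foxp3 and Tnfrsf9, and in 21.4% of all 32851 windows of the table. The Runx letters stood in 2 of the 10 (Izumo1r and the second Tnfrsf9 window) and in 16.8% of all windows, and the AP-1 letters in 1 of the 10 (Tnfrsf9) and in 7.81%. The forkhead letters, a form of the motif that Foxp3 and its relatives bind, were in 0 of the 10 windows and in 3.65% of all windows. A match describes letters in these windows and not a bound site. Tnfrsf4 and Tnfrsf18 lie next to each other on chromosome 4, with starts 12727 bases apart in the RefSeq gene table.

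All 10 genes had their highest mean level in the regulatory T-like cluster among the 14 clusters that could be ranked, which needed at least 3 mice with 10 cells. The shares of all genes that were highest in this cluster, or without overlap there, are not given, so these counts have no background. Foxp3 ran from 649 CPM through a median of 827 to 1149 CPM in that cluster over the 14 mice, with a mean of 853 ± 151 CPM (SD). In the T cells without a subset name it ran from 15.3 through 119 to 203 CPM, with a mean of 109 ± 57.8 CPM. The lowest regulatory T-like mouse was above the highest mouse of every other ranked cluster. The mean was 7.84 times that of the T cells without a subset name, and the next levels, of 2 macrophage-like clusters and neutrophil-like cells, overlapped each other.

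The 2 Ikaros family genes had the same first and second cluster. Ikzf2 ran from 457 through 922 to 1166 CPM in the regulatory T-like cluster, with a mean of 892 ± 213 CPM, against 183 ± 60.9 CPM in the T cells without a subset name, a ratio of 4.89 without overlap. Ikzf4 was at 125 ± 57.4 CPM in the regulatory T-like cluster and 21.4 ± 17.3 CPM in the T cells without a subset name. The 2 ranges of Ikzf4 overlapped, since the lowest regulatory T-like mouse had 52.6 CPM and the highest of the other mice had 59.1 CPM. Ikzf4 had no read in the gamma delta T-like cells of the 8 mice that held enough of them.

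Among the receptors, Il2ra ran from 676 through 958 to 1434 CPM in the regulatory T-like cluster, with a mean of 1004 ± 203 CPM. The next cluster was the gamma delta T-like one with 268 ± 185 CPM (8 mice), followed by CD8 T-like cells with 160 ± 49.8 CPM, and only the step from the first cluster to the next was without overlap. Ctla4 ran from 2062 through 2816 to 3821 CPM in the regulatory T-like cluster, with a mean of 2901 ± 512 CPM, against 854 ± 321 CPM in the T cells without a subset name and 614 ± 107 CPM in CD8 T-like cells. The mice of the first cluster did not overlap with those of the others, while the T cells without a subset name and CD8 T-like cells overlapped each other.

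Of the TNF receptor family, Tnfrsf4 had a mean of 745 ± 156 CPM in the regulatory T-like cluster, against 165 ± 84.4 CPM in the T cells without a subset name and 162 ± 56.3 CPM in CD8 T-like cells. Tnfrsf18 had a mean of 896 ± 193 CPM there, against 296 ± 97.7 CPM and 250 ± 89.9 CPM in the same clusters. Both were separated from the next cluster without overlap of the mice, by ratios of 4.53 and 3.02. Tnfrsf9 differed from the other 2 in its next cluster. It had a mean of 1306 ± 252 CPM in the regulatory T-like cluster, 867 ± 234 CPM in NK-like cells led by Gzmd, Gzmf and Gzme (9 mice), 605 ± 150 CPM in CD8 T-like cells and 362 ± 80.6 CPM in the larger NK-like cluster. The ratio of the first 2 was 1.51, and their mice overlapped. The lowest regulatory T-like mouse (781 CPM) was also level with the highest CD8 T-like mouse (782 CPM).

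Izumo1r had a mean of 419 ± 143 CPM in the regulatory T-like cluster, against 75.0 ± 59.1 CPM in the T cells without a subset name, a ratio of 5.59 without overlap. Ccr8 was sparsely read. It ran from 0 through 37.1 to 95.7 CPM in the regulatory T-like cluster, with a mean of 41.3 ± 28.1 CPM, and was at 11.2 ± 9.85 CPM in CD8 T-like cells and 9.46 ± 10.96 CPM in the T cells without a subset name. These 3 ranges overlapped. The plot of the 10 genes by T cell cluster shows the mice behind these means.

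**Figure D1:**
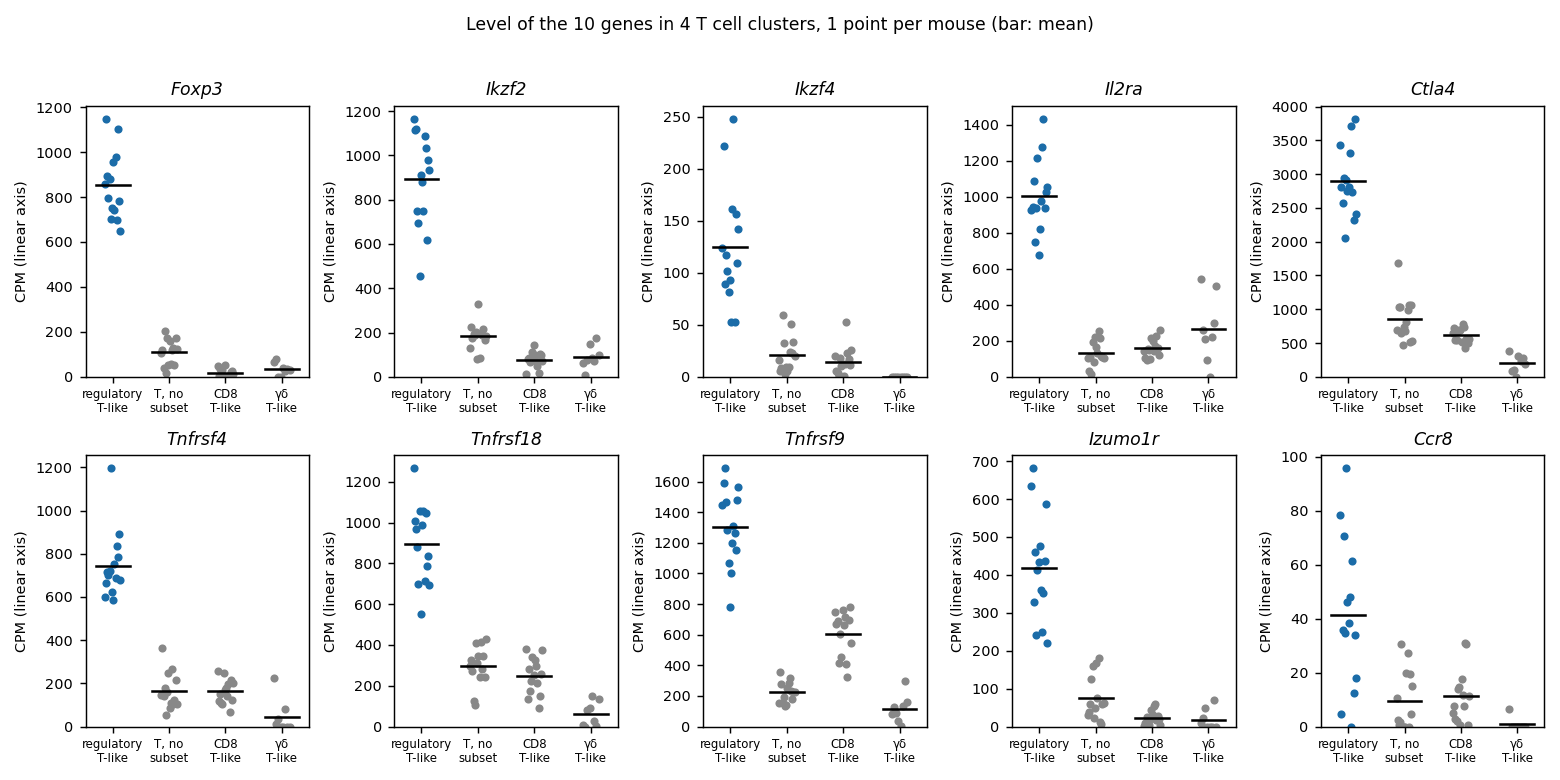
Level of each of the 10 genes in 4 T cell clusters, in CPM on linear axes, with 1 point per mouse with at least 10 cells of the cluster and a bar at the mean. The regulatory T-like points stand above those of the other 3 clusters without overlap for Foxp3, Ikzf2, Il2ra, Ctla4, Tnfrsf4, Tnfrsf18 and Izumo1r, and overlap them for Ikzf4, Tnfrsf9 and Ccr8.

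A further cluster of 66 cells, led by the cell-cycle genes Mki67 and Top2a and left without a name, also held these transcripts. A Foxp3 read was found in 84.8% of its cells and an Il2ra read in 90.9%. Pooled over mice, its levels were 534 CPM for Foxp3, 994 CPM for Il2ra and 1741 CPM for Ctla4. Only 1 mouse had 10 such cells, so no spread is given and the cluster was not counted among the T cells.

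A Foxp3 read was found in 70.9% of the regulatory T-like cells (67.9% after each cell was thinned to 10000 reads), at a median of 20322 reads per cell. The share was 9.09% in the T cells without a subset name, 6.01% in CD8 T-like cells and 6.80% in gamma delta T-like cells. Cells that should lack the gene set the background: it was read in 1.88% of the larger NK-like cluster (median 24653 reads) and in 9.88% of neutrophil-like cells (median 16280 reads). The shares of the 3 other T cell clusters were below that in neutrophil-like cells and above that in the larger NK-like cluster. At least 5 Foxp3 reads were found in 6.81% of neutrophil-like cells, and 37.0% of these cells were over the doublet limit. Whether the reads in the 3 other T cell clusters stand for expression was not tested. Of the 453 T cells with a Foxp3 read, 353 (77.9%) lay in the regulatory T-like cluster, 71 in the T cells without a subset name, 19 among CD8 T-like cells and 10 among gamma delta T-like cells.

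Among named clusters outside T cells, the largest share of cells with a Foxp3 read was in the main macrophage-like cluster (1523 cells, led by Arg1, Pf4 and Ccl12, median 112450 reads), where 29.2% of cells held one. In this cluster 72.1% of cells were over the doublet limit. Of its cells, 1223 held a read of Cd3e, Cd3d, Cd3g or Trac and 300 did not. A Foxp3 read was found in 35.2% of the cells with such a T cell read and in 5.00% of those without (exact 95% intervals 32.5% to 37.9% and 2.83% to 8.11%). The doublet limit was passed by 80.9% and 36.3% of these cells, and their median depth was 122916 and 75067 reads. After thinning to 10000 reads per cell the shares were 21.9% and 1.35%. The split by T cell reads was still made at full depth, here and for the other genes, so thinning does not remove depth from it.

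The other 9 genes were likewise read less often in macrophage-like cells without T cell reads. Ctla4 was read in 76.5% of the cells with T cell reads and 20.7% of those without, Il2ra in 49.1% and 12%, and Tnfrsf4 in 49.7% and 4.67%. Izumo1r was read in 29.8% and 1.67%, and Ccr8 in 7.85% and 0 of 300 cells, which allows a share of cells with a read of up to 1.22% (exact 95% bound over cells pooled from all mice). For a gene read this sparsely, that bound does not limit the share of cells that express it. Tnfrsf9, the 4-1BB gene, kept the largest share without T cell reads, 31.3%, or 17.9% after thinning. The plot of cells with a read in the macrophage-like cells shows all 10 genes. What part mixed barcodes or free RNA had in these reads was not tested.

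**Figure D2:**
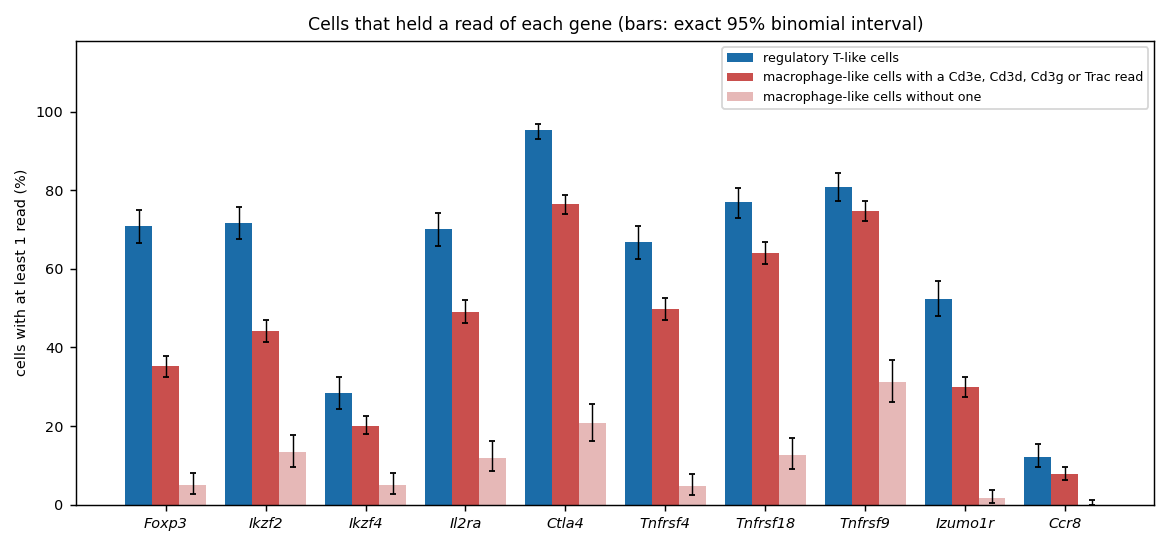
Percent of cells with at least 1 read of each gene in regulatory T-like cells (blue) and in macrophage-like cells with (dark red) and without (light red) a read of Cd3e, Cd3d, Cd3g or Trac, with exact 95% binomial intervals. Each gene is found less often in macrophage-like cells without T cell reads than in those with them, from 0 of 300 cells for Ccr8 to 31.3% for Tnfrsf9.

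Within T cells, the other 9 genes were set against Foxp3 cell by cell. The 453 T cells with a Foxp3 read, called Foxp3-detected, had a median of 21628 reads, and the 1289 T cells without one 19519 reads. An Ikzf2 read was found in 71.3% of the Foxp3-detected cells and 23.2% of the other T cells, and an Ikzf4 read in 28.0% and 7.53%. For the receptors the shares were 66.7% and 29.9% for Il2ra, 94.3% and 58.0% for Ctla4, 67.8% and 26.0% for Tnfrsf4, 74.2% and 39.5% for Tnfrsf18, and 79.9% and 41.6% for Tnfrsf9. Izumo1r was read in 51.2% and 13.03% and Ccr8 in 12.6% and 4.11%. The share was higher in the Foxp3-detected cells in 14 of 14 mice for 8 genes and in 13 of 14 for Ccr8. Foxp3-detected cells held a median of 6 of the other 9 genes, against 2 in the other T cells (5 and 2 after thinning). None of the 9 was read in 2 Foxp3-detected cells (0.442%), against 220 of the other T cells (17.1%).

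These differences were tested on reads summed per mouse, with both kinds of cell from the same mouse as a block, in edgeR's quasi-likelihood test over 12486 genes with Foxp3 left out. Genes were called at an adjusted p (Benjamini-Hochberg) under 0.05. Of the 9 genes, 8 were called, all 8 higher in Foxp3-detected cells, where 1.76% of all tested genes were called higher and 6.17% lower. The median log2 change of all tested genes was -0.43, so a change of 0 is above the middle of the genes. Foxp3-detected cells had the higher median depth per cell (21628 against 19519 reads). Sums weigh deep cells more, and CD8 T-like cells had a median of 52430 reads, against 16771 to 20322 in the other T cell clusters. With both arms matched in depth 8 of the 9 genes were again called. The calls over all genes then fell to 140 higher and 207 lower, against 220 and 771 without matching. With no replicate block, 323 genes were called higher and 396 lower.

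Ctla4 had the smallest p of all tested genes. It ran from 1651 through 2347 to 3959 CPM in Foxp3-detected cells and from 528 through 787 to 931 CPM in the other T cells of the same 14 mice, with no overlap. The log2 change was 1.55 (SE 0.07, adjusted p = 4.53e-12). Ikzf2, the Helios gene, had the second smallest p and ran from 493 through 818 to 1139 CPM, against 92.6 through 136 to 188 CPM. Its log2 change was 2.42 (SE 0.13, adjusted p = 6.17e-11), higher in 14 of 14 mice. Il2ra, the gene of CD25, ran from 572 through 785 to 1391 CPM, against 101 through 174 to 321 CPM, again without overlap, with a log2 change of 2.13 (SE 0.15, adjusted p = 4.56e-09).

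The costimulatory receptor genes rose as well. Tnfrsf4 averaged 695 ± 221 CPM in Foxp3-detected cells and 161 ± 47.5 CPM in the other T cells, a log2 change of 1.99 (SE 0.15), and Tnfrsf18 averaged 825 ± 243 and 272 ± 74.4 CPM, a log2 change of 1.49 (SE 0.14). Neither overlapped between the 2 kinds of cell. Tnfrsf9 had the smallest rise of the 8 called genes, 1.12 on the log2 scale (SE 0.14, adjusted p = 1.07e-05), with 1105 ± 270 and 475 ± 133 CPM, and was higher in 13 of 14 mice. The exception was a minP1_PDL1 mouse with 595 CPM in Foxp3-detected cells against 634 CPM in its other T cells.

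Izumo1r had the largest rise of the called genes, 2.80 on the log2 scale (SE 0.23, adjusted p = 5.84e-08), with 366 ± 108 CPM in Foxp3-detected cells and 53.2 CPM on average and 16.8 to 120 CPM in the other T cells, without overlap. Ikzf4 rose by 2.50 (SE 0.50, adjusted p = 0.00214), higher in 14 of 14 mice, at low levels of 113 ± 70.6 and 19.0 ± 14.5 CPM that overlapped across mice. Ccr8 was the gene that was not called. It averaged 36.2 ± 24.6 CPM in Foxp3-detected cells and 10.6 ± 7.64 CPM in the other T cells, with a log2 change of 1.82 (SE 0.70, adjusted p = 0.119), and was higher in 12 of 14 mice. Without the minP1_PDL1 mouse that had no Ccr8 read in Foxp3-detected cells, its change was 2.11 with an adjusted p of 0.0381, and DESeq2 gave 1.93 with an adjusted p of 0.00374.

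**Figure D3:**
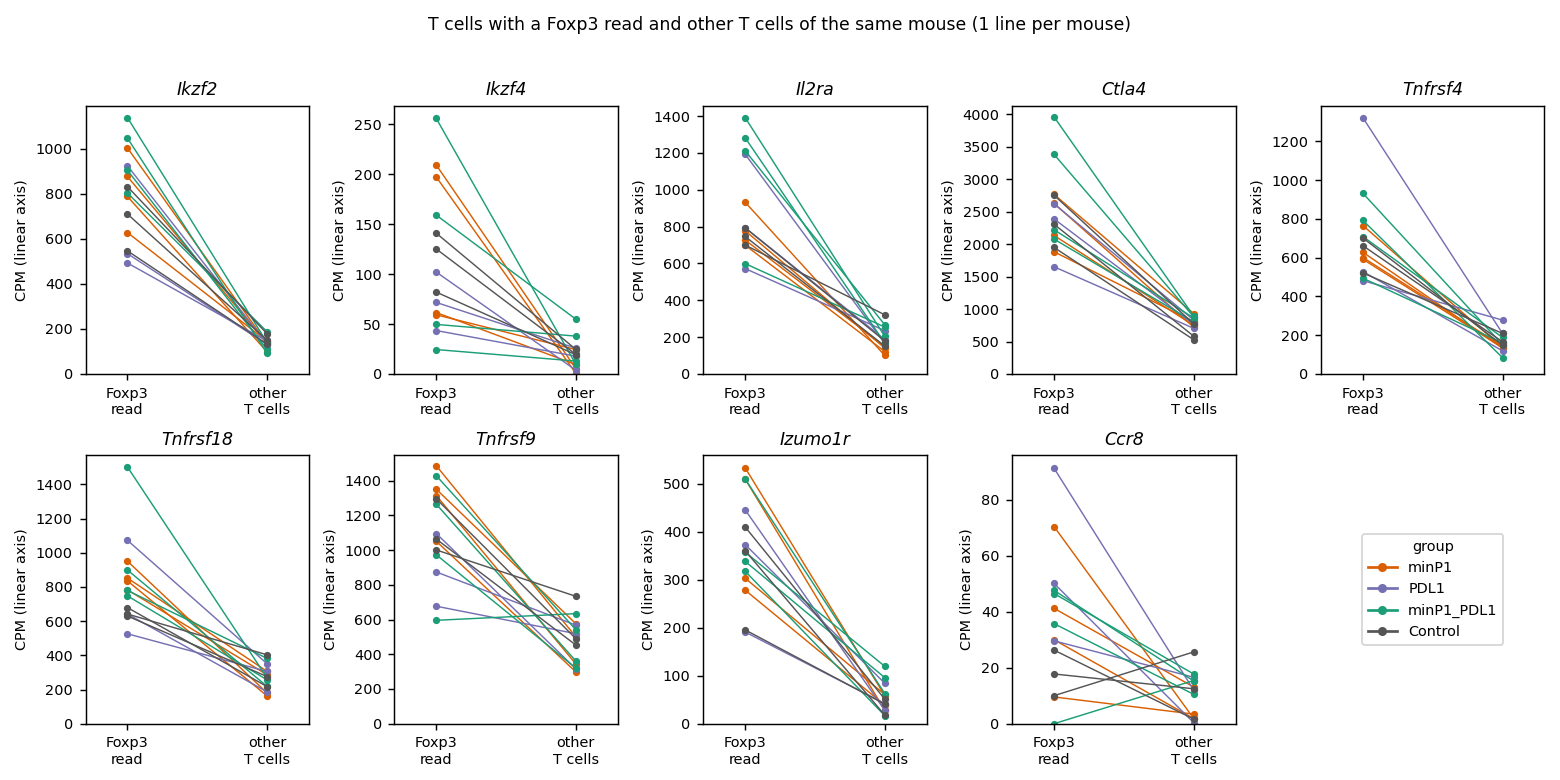
Level of the 9 genes other than Foxp3 in T cells with a Foxp3 read and in the other T cells of the same mouse, in CPM on linear axes, with 1 line per mouse coloured by treatment group. The lines fall to the right in every mouse for 7 genes, in 13 of 14 mice for Tnfrsf9 and in 12 of 14 for Ccr8.

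Outside the 10 genes, those with the smallest p that moved in the same direction in all 14 mice included genes known for regulatory T cells and general lymphocyte genes. Higher in Foxp3-detected cells were Icos, a costimulatory receptor (1939 ± 434 against 1060 ± 273 CPM, log2 change 0.76), Klrg1, a receptor of differentiated lymphocytes (269 ± 105 against 31.1 ± 16.7 CPM, 3.04), and Ccr2, a chemokine receptor (779 ± 171 against 320.0 ± 83.5 CPM, 1.18). Tnfrsf1b, which encodes TNF receptor 2, changed by 0.95, the adhesion receptor gene Cd2 by 1.00, Ifi27l2a by 1.61, Arl5a by 2.33, Srgn by 0.77, Neb by 3.09 and Vim by 0.84. Lower were the ribosomal protein genes Rpl8, Rps18, Rps25, Rps20, Rps3a1 and Rpl31, with log2 changes from -0.72 to -0.52, the mitochondrial gene MT-Nd1 (-0.55) and the elongation factor gene Eef1a1 (-0.38). Of 100 ribosomal protein genes tested, a group picked after the calls were seen, 77 were called lower and 0 higher, with a median of -0.45 beside -0.43 for all genes.

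Of 23 other genes known for regulatory T cells, 11 were called higher and 0 lower in Foxp3-detected cells, with a median log2 change of 1.29. Besides Icos and Klrg1 they included Capg, an actin-capping protein (755 ± 149 against 348 ± 63.9 CPM), and Lrrc32, which encodes GARP, the docking receptor of latent TGF-beta (115 ± 61.5 against 9.40 ± 7.08 CPM). Of 12 genes of interleukin-2 receptor signalling, 2 were called higher and 1 lower (median 0.30). The higher ones were Socs2, a feedback inhibitor (log2 change 1.72), and Il2rg, the common gamma chain (0.52), and the lower one was Bcl2, which protects from apoptosis (-2.21). Of 13 genes of TNF receptor and NF-kB signalling, 1 was called higher, Birc3 (0.66, adjusted p = 0.0487), and 0 lower (median 0.22). Of 16 partners and related factors of Foxp3, 1 was called higher, Foxo1 (0.64), and 2 lower, Ikzf1 (-0.59) and Bach2 (-1.76). The median of this list was -0.36, beside -0.43 for all genes.

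The lists above and those below are read beside the median of -0.43 over all genes. Of 316 CD8 T-like cells 19 were Foxp3-detected, while 77.9% of Foxp3-detected cells were regulatory T-like. The make-up of both arms by cluster therefore enters these lists, and its part in them was not tested. Of 11 cytotoxic genes 8 were called lower and 0 higher (median -1.94), among them Cd8a (89.5 ± 79.4 CPM in Foxp3-detected cells against 554 ± 130 CPM) and Nkg7, a granule protein gene (529 ± 259 against 1007 ± 159 CPM). Of 9 naive and memory genes 5 were called lower, among them Tcf7 (-2.21) and Klf2 (-0.72), and 1 was called higher, with a median of -0.72. Of 16 immediate early genes 8 were called lower and 0 higher (median -0.57), among them Nr4a2 (-1.28) and Atf3 (-1.37). Of 12 myeloid genes and of 7 MHC class II genes 0 were called in either direction (medians -0.19 and 0.21). The summed level of the 12 myeloid genes ran from 189 to 1306 CPM over the mice in Foxp3-detected cells and from 296 to 627 CPM in the other T cells, with all 12 genes read in both. At least 3 myeloid genes were read in 22.7% and 22.2% of the cells. With such cells left out, 777 genes and 8 of the 9 were called.

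The same comparison was then made inside the regulatory T-like cluster alone, a fit added after the data had been seen, which sets its cells with a Foxp3 read against those without one. Of 9274 genes tested, 6 were called higher (0.0647%) and 0 lower (0%), and 1 of the 9 genes was called (1657 genes had an unadjusted p under 0.05). It was Il2ra, with a log2 change of 1.08 (SE 0.22, adjusted p = 0.0130). The values of the others were 0.84 for Ikzf2 (SE 0.22, adjusted p = 0.133), 0.84 for Tnfrsf4 (SE 0.26, adjusted p = 0.164), 0.73 for Tnfrsf18 (SE 0.23, adjusted p = 0.164) and 0.69 for Izumo1r (SE 0.34, adjusted p = 0.275). Ikzf4 was at 1.22 (SE 0.78) and Ccr8 at 2.82 (SE 1.15), both with wide errors. Ctla4 was at 0.12 (SE 0.12) and Tnfrsf9 at 0.20 (SE 0.18). Ctla4, with the smallest p over all T cells, had the smallest of the 9 values inside the cluster. The median change of all genes is not given for the fit inside the cluster, so its values are set against 0 only. The 2 fits share cells, and their difference was not tested.

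**Figure D4:**
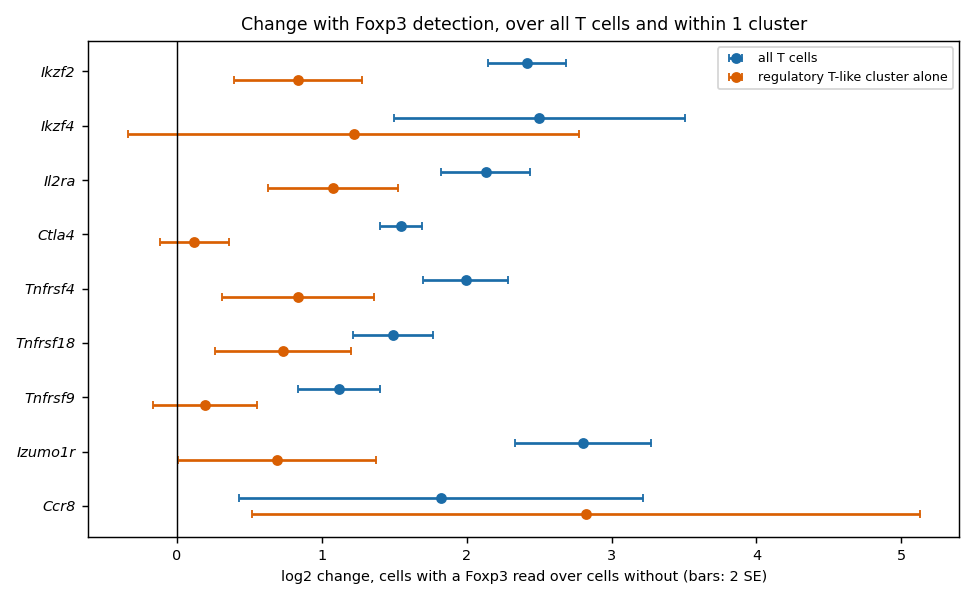
Log2 change of the 9 genes in cells with a Foxp3 read over cells without, over all T cells (blue) and inside the regulatory T-like cluster alone (orange), with bars of 2 SE. Over all T cells the values run from 1.12 to 2.80, and inside the cluster Ctla4 (0.12), Tnfrsf9 (0.20) and Ikzf4 (1.22) lie within 2 SE of 0. The values inside the cluster are not set against the median change of all genes there.

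Helios and CCR8 are both used to divide regulatory T cells, so Foxp3-detected T cells were also split by a read of each gene. For Ikzf2, 12 mice had at least 5 cells of both kinds. Of 9298 genes, 3 were called higher (0.0323%) and 0 lower (0%) in the Ikzf2-detected cells, which were Ly6a, encoding the surface protein Sca-1 (1448 ± 490 against 903 ± 801 CPM), B2m, the light chain of MHC class I (10090 ± 1195 against 9211 ± 1681 CPM), and Gnpnat1. Of the other 8 genes 0 were called by edgeR. Tnfrsf9 was closest, with 1204 ± 325 CPM in Ikzf2-detected cells and 853 ± 375 CPM in the others, a log2 change of 0.74 (SE 0.21, adjusted p = 0.242), higher in 10 of 12 mice. It was called without a filter on low counts (0.81, adjusted p = 0.0412). The median change of all genes was 0.88, so these values are read against that level. Another normalization (RLE) moved the other 8 genes by a median of -0.22. At an unadjusted p under 0.05 there were 1110 genes, and DESeq2 called 197. The 3 calls rest on single mice, since 0 genes were called without minP1_PDL1 mouse 4 or without Control mouse 3.

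For Ccr8, 5 mice had at least 5 cells of both kinds. Of 8350 genes, 0 were called higher (0%) and 2 lower (0.024%) in Ccr8-detected cells: Ms4a4b, a T cell membrane protein gene (318 ± 416 against 843 ± 299 CPM, log2 change -2.49, adjusted p = 0.00434), and Klf2, a factor of recirculating T cells (280 ± 329 against 790 ± 266 CPM, -2.44, adjusted p = 0.0231). Of the other 8 genes 0 were called by edgeR. At an unadjusted p under 0.05 there were 504 genes, and DESeq2 called 7. The median change of all genes was -1.09. RLE normalization moved those of the other 8 genes that were tested by a median of 0.27. The count moved to 0 without minP1 mouse 4, 1 without minP1 mouse 1, 4 without PDL1 mouse 3 and 5 without Control mouse 3, and was 0 with arms matched in depth.

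The study's own question was the response to minP1, to anti-PD-L1 and to both, and it was followed for the 10 genes in all T cells, all CD45+ cells and Foxp3-detected T cells. All 14 mice entered each fit, and the 5 pairs of groups compared share mice with each other. In T cells, 12429 genes were tested, and of the 10 genes 0 were called in any pair. For minP1 against Control, PDL1 against Control, minP1_PDL1 against PDL1 and minP1_PDL1 against minP1, 0% of all tested genes were called, and for minP1_PDL1 against Control 0.00805%. The single called gene was Fos, an immediate early gene (1112 CPM in minP1_PDL1 mice against 508 CPM in Control mice, log2 change 1.14, SE 0.13, adjusted p = 0.00163). At an unadjusted p under 0.05 edgeR had 415 to 666 genes per pair, and DESeq2 called 3 to 16 genes, with 0 of the 10 among them.

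Foxp3 and Ctla4 varied in T cells between mice of the same group. Foxp3 was at 216, 320.1, 215 and 187 CPM in the minP1 mice, 224, 207 and 278 CPM in the PDL1 mice, 310.2, 177, 274 and 195 CPM in the minP1_PDL1 mice, and 280.4, 229 and 210.3 CPM in the Control mice. All 4 groups overlapped. Ctla4 was at 1111, 1415, 1084 and 1052 CPM in the minP1 mice, 959, 1059 and 1365 CPM in the PDL1 mice, 1186, 1315, 1433 and 1148 CPM in the minP1_PDL1 mice, and 933, 1367 and 1000 CPM in the Control mice. Here too every group overlapped every other.

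Il2ra was the only one of the 10 with an unadjusted p under 0.05 in T cells. It was at 300, 308.6, 316 and 222 CPM in the minP1 mice, 326, 352 and 368 CPM in the PDL1 mice, 358, 321, 476 and 453 CPM in the minP1_PDL1 mice, and 354, 330.4 and 413 CPM in the Control mice. The 4 minP1 mice were below every mouse of the other 3 groups. For minP1_PDL1 against minP1 the log2 change was 0.50 (SE 0.15, edgeR adjusted p = 0.930), and for minP1 against Control it was -0.36 (SE 0.16). Neither passed the adjusted threshold, and both comparisons share the minP1 mice. In T cells, summed myeloid genes ran from 396 to 567 CPM in minP1 mice, 364 to 590 CPM in PDL1 mice, 332 to 562 CPM in minP1_PDL1 mice and 341 to 431 CPM in Control mice. Over the 10 genes the log2 changes ran from -0.36 to 0.13 for minP1, from -0.58 to 0.49 for PDL1 and from -0.29 to 0.34 for minP1_PDL1, each against Control, with SEs from 0.15 to 0.57. The list of 23 other regulatory T cell genes had 0 calls in each of the 5 pairs.

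**Figure D5:**
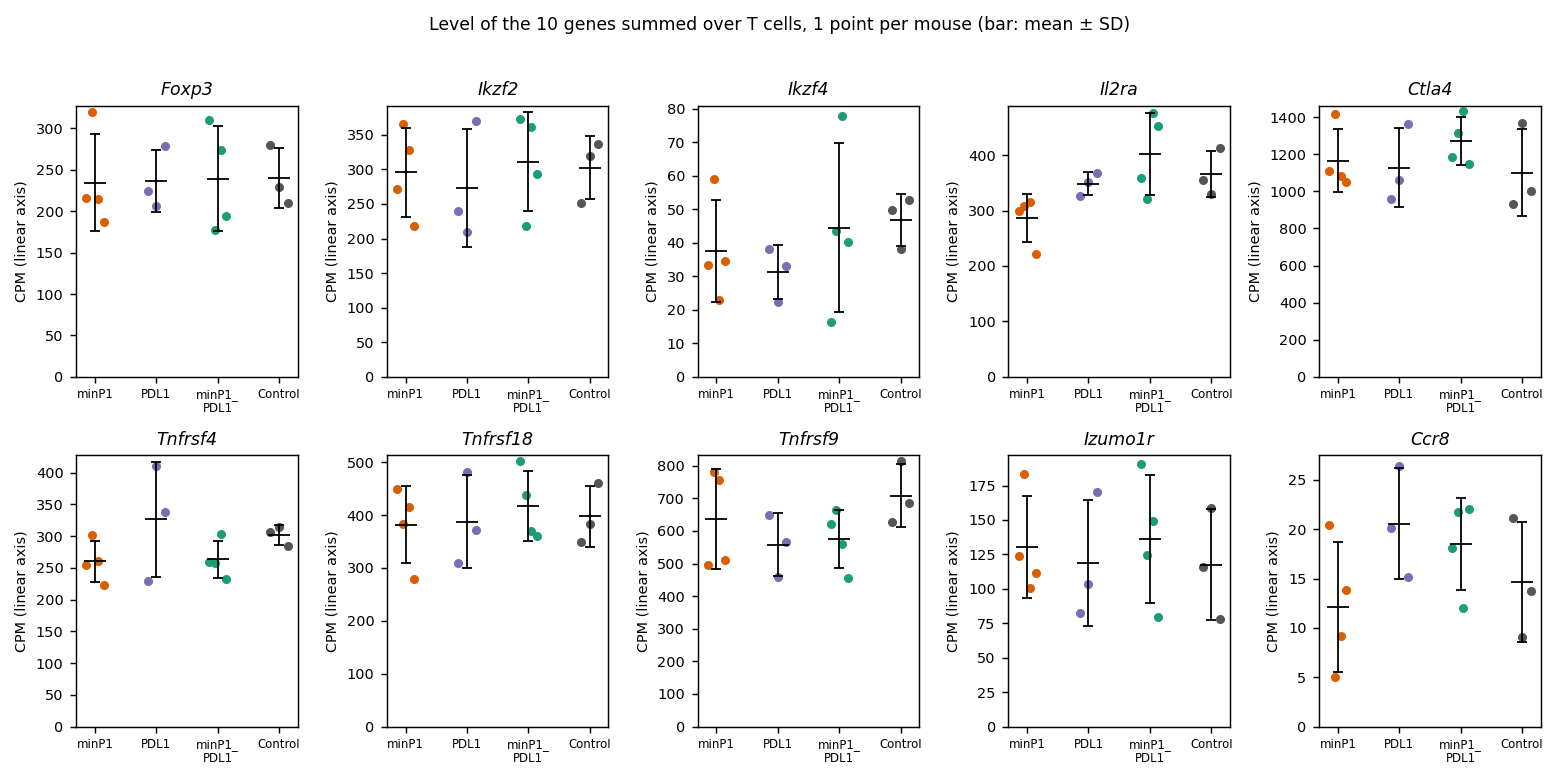
Level of the 10 genes summed over T cells, in CPM on linear axes, with 1 point per mouse and bars at the mean ± SD of each treatment group. The 4 Il2ra values of minP1 mice (222 to 316 CPM) lie below those of the other mice (321 to 476 CPM).

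In the sums over all CD45+ cells, fewer cells of a type and less RNA per cell cannot be told apart. There 18410 genes were tested, 0% were called in each of the 5 pairs, and 0 of the 10 genes were called by edgeR or DESeq2. DESeq2 called 3 to 144 other genes per pair, and 776 to 1915 genes had an unadjusted p under 0.05 in edgeR. The 2 with the lowest p values of the 10 were in minP1_PDL1 against minP1: Il2ra at 102 ± 16.4 CPM in minP1_PDL1 against 75.4 ± 8.81 CPM in minP1 mice (log2 change 0.43, SE 0.18, adjusted p = 0.803) and Tnfrsf4 at 87.7 ± 14.9 against 62.8 ± 5.27 CPM (0.48, SE 0.20, adjusted p = 0.810). Each was higher in all 16 pairs of mice, without passing the test.

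In Foxp3-detected T cells, where a changed number of such cells does not enter the level, 9620 genes were tested, 0% were called in each of the 5 pairs, and 0 of the 10 genes were called by edgeR or DESeq2. DESeq2 called 0 to 16 other genes per pair, and 323 to 600 genes had an unadjusted p under 0.05 in edgeR. Ikzf2 was at 804, 905, 1139 and 1048 CPM in the minP1_PDL1 mice against 535, 493 and 925 CPM in the PDL1 mice, a log2 change of 0.56 (SE 0.24, adjusted p = 0.770). Tnfrsf18 was at 780, 1503, 900 and 748 CPM in the minP1_PDL1 mice against 680, 630.2 and 642 CPM in the Control mice, a log2 change of 0.55 (SE 0.25, adjusted p = 0.779). The first pair of groups overlapped and the second did not. Il2ra, lowest in the minP1 mice over all T cells, was not lowest there in Foxp3-detected cells. It was at 727, 777, 932 and 699 CPM in the minP1 mice, 572, 1193 and 794 CPM in the PDL1 mice, 599, 1282, 1212 and 1391 CPM in the minP1_PDL1 mice, and 793, 746 and 699.8 CPM in the Control mice. All 4 groups overlapped, and the log2 change of minP1 against Control was 0.05 (SE 0.26).

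The share of T cells with a Foxp3 read was 20.6%, 33.6%, 21.0% and 26.7% in the minP1 mice, 29.9%, 18.9% and 29.4% in the PDL1 mice, 33.3%, 19.7%, 26.5% and 25.3% in the minP1_PDL1 mice, and 28.7%, 31.1% and 22.6% in the Control mice. The means were 25.4% ± 6.10 in minP1, 26.1% ± 6.17 in PDL1, 26.2% ± 5.60 in minP1_PDL1 and 27.4% ± 4.37 in Control mice (SD). All groups overlapped. The differences in percentage points were -1.99 for minP1, -1.37 for PDL1 and -1.23 for minP1_PDL1 against Control, with two-sided exact permutation p of 0.657, 0.700 and 0.771, each 1 after adjustment over 5 comparisons. The directions were not stable: with T cells called by reads of at least 2 of Cd3e, Cd3d, Cd3g and Trac in place of clusters the difference was 1.62 for PDL1 and 1.02 for minP1_PDL1, and without PDL1 mouse 2 that of PDL1 was 2.19. Without Control mouse 2 these were 0.435 and 0.574, and minP1_PDL1 was at 0.932 without its mouse 2 and at 0.706 with the cell-cycle cluster. A permutation test of F over the 4 groups gave p = 0.972. With 3 against 3 mice the smallest possible p is 0.1, so PDL1 against Control could not have been called whatever its size. With 4 against 3 or 4 against 4 mice it is 0.0286 before adjustment, and a single comparison at that value would not have passed after adjustment over 5. These p-values therefore do not show that the shares were alike.

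The genes most like Foxp3 across the tissue were found from 178 sums of 1 mouse and 1 of 18 clusters, by Pearson's r of log2(CPM + 1). The 9759 genes ranked were those above a minimum mean level in the regulatory T-like cluster, where Foxp3 was highest. Genes below that level there were left out in advance. The ranking is a description without a test, since the sums share mice, depth and the clusters. Izumo1r had rank 1 of the genes ranked (r = 0.677), Tnfrsf4 rank 4 (0.656), Ctla4 rank 7 (0.639) and Ikzf2 rank 11 (0.603). Ikzf4 had r = 0.560, Il2ra 0.519, Tnfrsf18 0.486, Ccr8 0.444 and Tnfrsf9 0.330. Outside the 10 genes the highest were Trat1, a T cell receptor adaptor gene (0.674), Cd5, a negative regulator of T cell receptor signals (0.668), the transcription factor gene Maf (0.647), the GARP gene Lrrc32 (0.646), Hif1a (0.625), Ncmap (0.619), Sgip1 (0.616) and Ifi27l2a (0.595).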

How the data were processed

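The data are BD Rhapsody whole-transcriptome single-cell libraries of tumour CD45+ cells, with 1 hashtag antibody per mouse. The deposited table holds the authors' read counts per gene and cell, not collapsed by molecule (median 10 reads per nonzero entry). Per the submitters' processing notes, cutadapt 2.10, Bowtie2 2.3.4.1, Seurat 2.3.4 and the build mm10 were used. Of 8262 barcodes, 147 assigned to no mouse were left out, and 383 with over 25% mitochondrial reads were removed, leaving 7732 (the labels state 7613).

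Cells were clustered with scanpy 1.11.5 in Python 3.11.15 (2000 variable genes without the 10 genes studied, 30 components, 20 neighbours, Leiden resolution 1), and a cluster was named where at least 3 markers stood among its top 50 genes. CPM were computed here from counts summed per mouse. Doublets were scored and kept, and left out as an alternative. A cell with 1 read or more was taken as detected, and thinning drew 10000 reads per cell.

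Tests used edgeR 4.0.16 (quasi-likelihood, TMM, R 4.3.3, limma 3.58.1) on sums with at least 10 cells per mouse (5 per arm of a split), adjusted over all genes tested; DESeq2 1.42.0 was an alternative. The mouse is the replicate. Named non-member genes were those of smallest p past the threshold with 1 direction in every mouse (Foxp3 split, up to 10 higher and 8 lower), up to 5 per direction in the other splits and up to 3 per treatment pair, and list members were named by smallest p. The fits were tested on simulated counts. The 10 genes and the lists were chosen with earlier results of these data known. The name and values of 1 gene of the naive and memory list are not reported here.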

Additional observations from a re-analysis of the deposited data

Results flagged for a closer look

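In 62 groups of 4 mice, the gap between the highest or lowest mouse and its nearest neighbour was set against the range of the group (critical value 0.829 for 4 mice), a rule that chance meets in about 1 of 20 groups. It singled out 2 values. The Ctla4 level in T cells of the second minP1 mouse was 1415 CPM, while the other minP1 mice had 1052 to 1111 CPM. The Ccr8 level over all CD45+ cells of the first minP1 mouse was 4.55 CPM, while the other minP1 mice had 2.09 to 2.24 CPM.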

How the results depend on the processing

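In the 5 treatment pairs, 0 of the 10 genes were called under any alternative run in any of the 3 cell populations. Of 2976 further values of the 10 genes under alternatives, 193 changed sign, 190 of them where the value was below its SE, and the smallest adjusted p was 0.325. The counts over all genes moved with the tool, and the cause was not tested. In the order minP1, PDL1 and minP1_PDL1 against Control, minP1_PDL1 against PDL1 and minP1_PDL1 against minP1, DESeq2 called 3, 4, 16, 5 and 8 genes in T cells, 38, 48, 144, 3 and 44 in all CD45+ cells, and 0, 2, 16, 12 and 9 in Foxp3-detected T cells. With no filter on low counts, the last 4 of these pairs gave 3, 4, 7 and 1 genes in Foxp3-detected T cells. Leaving out 1 mouse at a time gave 0 to 2 genes for minP1_PDL1 against Control in all CD45+ cells (2 without PDL1 mouse 2). In Foxp3-detected T cells it gave 0 to 1 for minP1 against Control (1 without minP1 mouse 2), 0 to 1 for minP1_PDL1 against Control (1 without PDL1 mouse 2) and 0 to 1 for minP1_PDL1 against minP1 (1 without minP1 mouse 2).

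No pairing by mouse number was seen in the T cell sums, where the correlations of the 19 same-numbered pairs ran from -0.0457 to 0.0227. Their median was -9e-04, and that of differently numbered pairs was -6e-04. Whether same-numbered mice were handled together cannot be read from these values. With the number as a replicate block in the treatment fits, 0 of the 10 genes were called and 1 gene in all, in T cells for minP1_PDL1 against Control, as without it; the T cell change of Il2ra was 0.50 for minP1_PDL1 against minP1 and -0.34 for minP1 against Control. In the splits of cells the block is the mouse, and the counts without this replicate block are given next.

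In the Foxp3 split, 220 genes were called higher and 771 lower. DESeq2 called 1931 (457 higher, 1474 lower), arms matched in depth 347 (140 and 207), the fit with no replicate block 719 (323 and 396), and RLE normalization 273 and 641. Inside the regulatory T-like cluster 6 genes and 1 of the 9 were called. Leaving out 1 mouse gave 795 to 969 genes and 8 to 9 of the 9, where Ccr8 changed by 1.55 to 2.11 and was called without minP1_PDL1 mouse 3. Ccr8 was also called with no replicate block (1.70, adjusted p = 0.0336). The Ikzf2 split had 197 genes by DESeq2, 0 with RLE, 18 with no filter (1 of the 8, Tnfrsf9), 0 with no replicate block, 7 with at least 5 reads for detection, 5 without T cells that hold myeloid reads, and 0 to 4 without 1 mouse. In it, Ctla4 turned to -0.0635 with DESeq2, -0.0636 with RLE and -0.0736 with arms matched in depth, and Izumo1r to -0.0475 with arms matched in depth. The Ccr8 split had 7 genes by DESeq2, 1 with RLE, 4 with no filter, 0 with no replicate block, 0 with arms matched in depth and 0 to 5 without 1 mouse.

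The differences in the share of T cells with a Foxp3 read changed direction under some settings. With T cells called by counts (reads of at least 2 of Cd3e, Cd3d, Cd3g and Trac) they were 1.62 points for PDL1 and 1.02 for minP1_PDL1 against Control and -0.595 for minP1_PDL1 against PDL1. With the cell-cycle cluster, minP1_PDL1 against Control was 0.706. With at least 5 reads for detection, minP1_PDL1 against PDL1 was -1.04, and thinned, minP1_PDL1 against minP1 was -0.170. Without 1 mouse, the 5 differences in the order above ran from -4.71 to -0.185, -3.80 to 2.19, -3.67 to 0.932, -3.42 to 2.31 and -1.62 to 3.47. The direction turned in at least 1 of them without PDL1 mouse 2, Control mouse 2, minP1_PDL1 mouse 1 or 2, or minP1 mouse 1 or 3. All 10 genes kept their highest level in the regulatory T-like cluster at a clustering resolution of 0.5, without high doublet scores and with the 10 genes used in clustering. Few cells held a read of Ccr8 or Ikzf4, so depth limits what can be said of them, as it does in the treatment fits of Foxp3-detected cells.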

Other observations

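Ligand genes of the receptors were read in several clusters, and the levels below are for clusters with at least 3 mice of 10 cells unless pooled cells are named. Ccl1, whose product binds CCR8, had its highest mean level in CD8 T-like cells, 219 ± 214 CPM (SD, 14 mice), with a wide spread, and Ccl8, a second CCR8 ligand in mice, in the macrophage-like cells led by Arg1, 377 ± 605 CPM. Cd86 was highest in monocyte-like cells (187 ± 49.2 CPM) and Cd80 in neutrophil-like cells (78.9 ± 38.9 CPM) and both bind CTLA-4. In 40 mature DC-like cells pooled over mice Cd86 was at 339 CPM and Cd80 at 98.7 CPM, and regulatory T-like cells had 20.4 CPM of Cd80. Among the ligand genes of the TNF receptor family the highest cluster means were 29.5 CPM for Tnfsf4, 33.7 CPM for Tnfsf9 and 0.614 CPM for Tnfsf18, and that of Il2 was 7.21 CPM. Tnfsf9 was at 75.3 CPM in the pooled mature DC-like cells and 47.0 CPM in 80 pooled cells of an unnamed cluster led by Hspa1a. Of 8 ligand genes, 6 were tested between Foxp3-detected and other T cells, and 2 were called lower and 0 higher: Ccl1, with 9.54 ± 34.9 CPM in Foxp3-detected cells and 127 ± 130 CPM in the other T cells, and Tnfsf4, with 3.90 ± 8.59 and 8.58 ± 8.68 CPM.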
